A study of Mus musculus with 28 samples.

Results

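The 8 genes described here mark the precursors of oligodendrocytes and their first steps toward myelinating cells: *Pdgfra*, *Cspg4*, *C1ql1*, *Ptprz1*, *Gpr17*, *Enpp6*, *Bmp4* and *Vcan*. They were chosen by symbol, as 8 of the 29878 genes listed for each library, and their counts were examined in all 28 RNA-seq libraries of the series. The libraries came from the dorsal striatum, ventral striatum, motor cortex and hypothalamus of male mice aged 2 to 3 months, which were wild type (WT), heterozygous or homozygous knockout (KO) for *Hdc*, the gene of histidine decarboxylase, on a C57Bl/6 background. From WT, heterozygous and KO mice in turn there were 2, 3 and 2 libraries of dorsal striatum and 1, 2 and 2 of motor cortex. Ventral striatum gave 3, 3 and 2, as did hypothalamus. The knockout is carried by every tissue of a KO mouse. The single WT library of the motor cortex leaves comparisons with that group without a replicate on the WT side. Libraries are named by genotype, region and the digit in the label, from 1 to 8, which may stand for the mouse. Nothing in the labels says that libraries of a group are separate animals, and p-values measure the spread between these libraries.

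Oligodendrocyte precursor cells persist in the adult brain, where they divide slowly and give rise to new myelinating cells. A precursor that leaves the cell cycle passes through a short-lived committed stage, in which surface receptors of the precursor are lost and new transcripts appear, before the genes of compact myelin are switched on. *Pdgfra* encodes the receptor for platelet-derived growth factor A, the main mitogen of precursors, and *Cspg4* encodes the NG2 proteoglycan of their surface, which pericytes also carry. *C1ql1* encodes a secreted C1q-like protein that binds the adhesion receptor encoded by *Adgrb3*, and *Ptprz1* encodes a receptor-type tyrosine phosphatase that binds pleiotrophin and is also made by astrocytes. *Gpr17*, a G protein-coupled receptor, and *Enpp6*, a choline-specific phosphodiesterase, are transcribed around commitment and in newly forming oligodendrocytes. *Bmp4* encodes a secreted bone morphogenetic protein that holds back oligodendrocyte differentiation, and *Vcan* encodes versican, a large chondroitin sulfate proteoglycan of the extracellular matrix.

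The members are protein-coding genes in the GENCODE M21 annotation of the mouse build GRCm38. The study counted reads on exons of an older Ensembl annotation of that build, so exon lengths and shared bases given here may differ from those used in the counting. *Pdgfra* lies on chromosome 5 from 75152292 to 75198215 (plus strand), *Cspg4* on chromosome 9 from 56865033 to 56899870 (plus), *C1ql1* on chromosome 11 from 102939264 to 102946688 (minus) and *Ptprz1* on chromosome 6 from 22875502 to 23052916 (plus). *Enpp6* lies on chromosome 8 from 46986887 to 47096762 (plus), *Bmp4* on chromosome 14 from 46383520 to 46390669 (minus) and *Vcan* on chromosome 13 from 89655312 to 89742509 (minus). Exons of *Bmp4* share 89 bases with *Gm15217* on the other strand, and those of *Pdgfra* share 30 bases with *Mir7025* on the same strand and more with predicted genes not among those counted. Reads on shared bases are uncertain, since the strand setting of the counting is not given in the sources used here. The exons of *Cspg4*, *C1ql1*, *Ptprz1*, *Enpp6* and *Vcan* shared no base with another annotated gene.

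The promoters of 6 members are in the RefSeq table of the build GRCm38.p6, from 250 bases before to 50 bases after the annotated start. They are shown for *Pdgfra* and *Cspg4*, surface markers of precursors with the same order of regions, and for *Enpp6*, a gene of later cells whose order of regions differed. Capitals mark each CG dinucleotide, and the sequences are the strand of the gene, 5′ to 3′: chr5:75152001-75152300 (plus strand) for *Pdgfra*, chr9:56864854-56865153 (plus) for *Cspg4* and chr8:46986637-46986936 (plus) for *Enpp6*.
Pdgfra: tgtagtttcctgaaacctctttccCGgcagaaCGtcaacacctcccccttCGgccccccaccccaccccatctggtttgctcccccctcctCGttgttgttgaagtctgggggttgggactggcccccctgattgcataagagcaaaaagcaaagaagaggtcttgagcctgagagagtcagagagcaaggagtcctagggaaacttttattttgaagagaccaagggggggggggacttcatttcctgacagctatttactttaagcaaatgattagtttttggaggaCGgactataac
Cspg4: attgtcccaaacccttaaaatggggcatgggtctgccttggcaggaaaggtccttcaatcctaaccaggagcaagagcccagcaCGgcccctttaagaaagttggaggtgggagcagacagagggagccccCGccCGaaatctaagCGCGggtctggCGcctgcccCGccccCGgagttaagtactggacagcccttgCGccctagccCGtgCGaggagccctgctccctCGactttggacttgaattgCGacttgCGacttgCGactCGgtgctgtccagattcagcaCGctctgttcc
Enpp6: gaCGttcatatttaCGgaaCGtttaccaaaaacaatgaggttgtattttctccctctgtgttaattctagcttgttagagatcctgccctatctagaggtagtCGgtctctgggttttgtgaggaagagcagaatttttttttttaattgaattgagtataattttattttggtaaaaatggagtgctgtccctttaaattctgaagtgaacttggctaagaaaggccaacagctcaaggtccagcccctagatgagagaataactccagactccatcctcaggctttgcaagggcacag
The *Cspg4* window held 17 CG dinucleotides and 60.0% G and C, the *Pdgfra* window 5 and 51.0%, and the *Enpp6* window 4 and 40.3%, while the median over 32851 RefSeq promoters of the same length was 7 and 52.7%. *Ptprz1*, the most abundant member, had the richest window, with 29 CG dinucleotides and 71.7% G and C, and those of *Bmp4* and *Vcan* held 12 each. An E-box written CAGCTG and a SOX motif written ACAAAG, each searched on both strands, were in 0 of the 6 windows and in 16.3% and 18.71% of all promoters, which says only that these letters are not in these windows. *C1ql1* and *Gpr17* were not in the promoter table. The *Pdgfra* window follows the RefSeq start, and the GENCODE start of that gene, 75152292, lies near the end of the window. The last 20 bases of the *Pdgfra* window were in no GENCODE transcript of the gene, unlike those of the other windows.

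Libraries held between 3536802 and 5150280 counts on genes (median 4392301.5). Values are given as CPM, a gene's count relative to the TMM-scaled size of its library. Tests are edgeR likelihood ratio tests on the counts of 14979 genes above 1 CPM in at least 2 libraries, a filter that all 8 members passed. Genes counted as called where the Benjamini-Hochberg adjusted p over those 14979 genes was under 0.05. Region labels matched their neurons. In both striatal regions 9 of 9 genes of striatal spiny neurons were higher than in the motor cortex and the hypothalamus. In the motor cortex 8 of 8 genes of cortical excitatory neurons, and in the hypothalamus 9 of 10 hypothalamic genes, were higher than in the other 3 regions. *Hdc* had between 79 and 111 counts per library in WT and between 54 and 66 in KO hypothalamus. In the other 3 regions it had between 0 and 6 in WT, between 17 and 33 in heterozygous and between 29 and 51 in KO libraries. These counts per gene do not show which exons were read, so KO stands for libraries labelled KO throughout. Library KO dorsal striatum 8 stood apart by 10 choroid plexus genes summing to 2910 CPM, against 3.90 to 70.8 in the other dorsal striatum libraries. So did heterozygous dorsal striatum 4 by 10 cell division genes at 36.7 CPM, against 6.90 to 10.2. The other KO library of the region, KO dorsal striatum 7, had 8 cortical excitatory neuron genes summing to 441 CPM, against 90.7 to 191 in the other 6 dorsal striatum libraries. In WT dorsal striatum the spiny neuron genes summed to 8526 and 10647.5 CPM, against 7418 to 8764 in KO and heterozygous libraries of that region. Library WT dorsal striatum 1 had the lowest TMM scaling factor of the 28 libraries, at 0.734. Uneven levels were also seen elsewhere. The spiny neuron genes summed to 1740 and 4064 CPM in the 2 KO ventral striatum libraries, against 2026 to 3511 in WT. In the hypothalamus the cortical neuron genes summed to 212 and 566 CPM in the 2 KO libraries, against 213 to 334 in WT and heterozygous ones.

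Averaged over the 28 libraries and divided by exon length, the members spanned from 0.856 CPM per kilobase for *Bmp4* to 19.1 for *Ptprz1*. *C1ql1* stood at 5.44 CPM per kilobase, *Pdgfra* at 4.08, *Gpr17* at 4.06, *Vcan* at 2.33, *Enpp6* at 1.93 and *Cspg4* at 1.51. *Bmp4* rested on 2 to 14 counts per library, which limits what its comparisons can show, whereas *Ptprz1* had between 642 and 2089 counts and the other 6 members between 11 and 299. Region accounted for 87.1% of the variance of log2 CPM of *Ptprz1*, 86.3% for *Pdgfra*, 81.6% for *Gpr17* and 76.6% for *C1ql1*. It accounted for 65.8% for *Cspg4*, 65.4% for *Vcan*, 56.2% for *Enpp6* and 11.2% for *Bmp4*, against a median of 49.2% over all genes tested. Genotype within region accounted for 2.67% for *C1ql1* to 22.3% for *Enpp6*, where spread within groups took 20.7% and 21.5%. In groups of 3 or fewer libraries, spread between libraries alone gives part of such a genotype share. No median over all genes was taken for it. In these bulk samples, fewer cells of a type and less RNA per cell cannot be told apart.

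**Figure D1:**
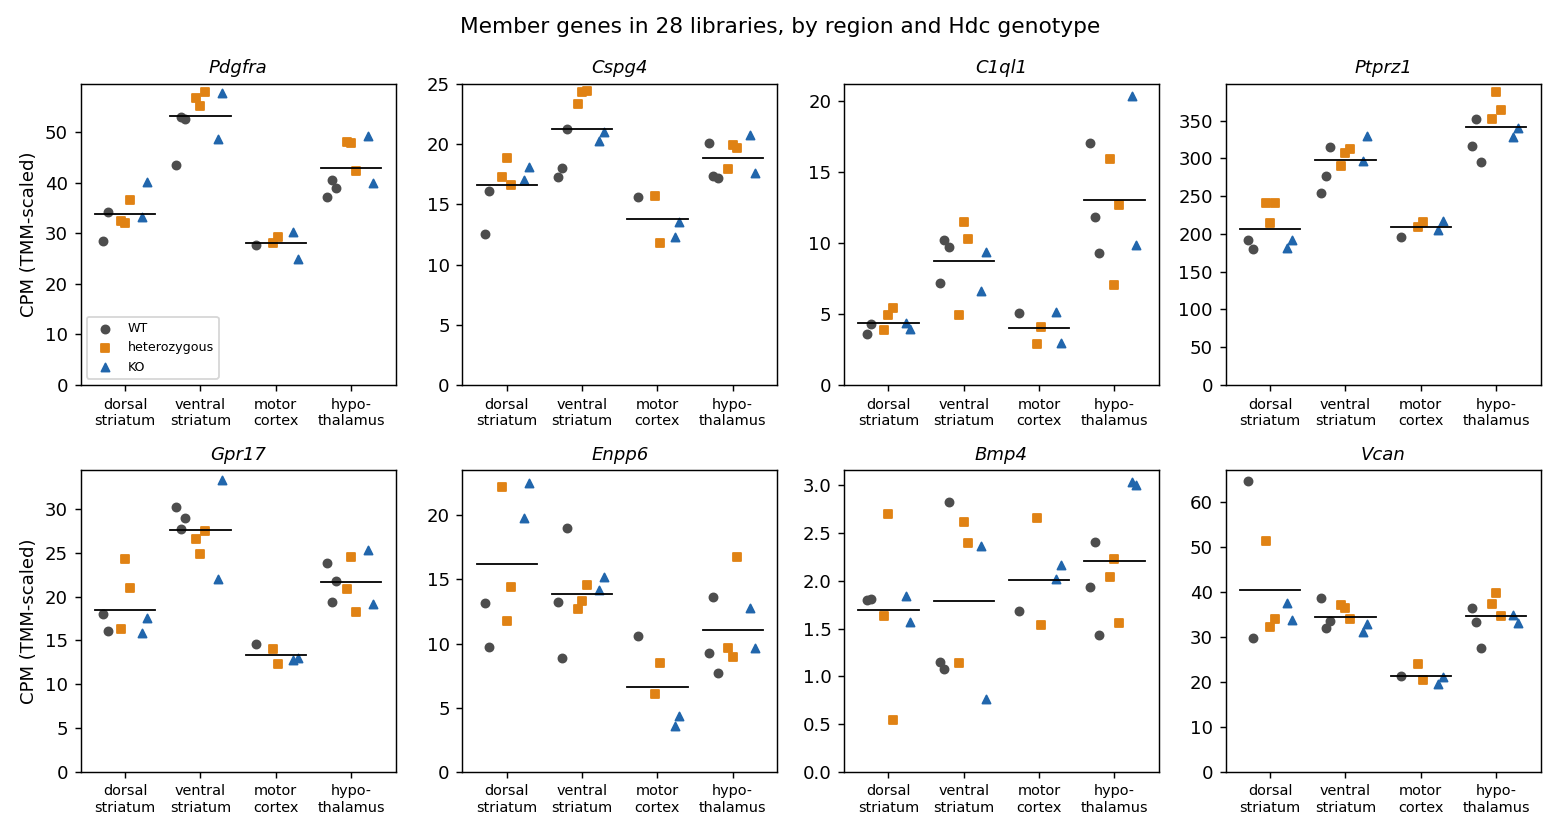
Each panel plots 1 member, with TMM-scaled CPM on the vertical axis, the 4 regions on the horizontal axis, a point for each of the 28 libraries by *Hdc* genotype and a line at the mean of the region. *Pdgfra* and *Gpr17* are highest in the ventral striatum and lowest in the motor cortex, *Ptprz1* and *C1ql1* are highest in the hypothalamus, and *Enpp6* and *Vcan* have their highest means in the dorsal striatum.

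*Pdgfra*, the growth factor receptor of precursors, was highest in the ventral striatum and lowest in the motor cortex. Its level was 53.1 ± 4.97 CPM (SD, n = 8) in the ventral striatum, 43.0 ± 4.66 (n = 8) in the hypothalamus, 33.8 ± 3.67 (n = 7) in the dorsal striatum and 28.0 ± 2.04 (n = 5) in the motor cortex. Libraries ran from 43.5 through a median of 54.1 to 57.9 CPM in the ventral striatum and from 37.1 through 41.3 to 49.2 in the hypothalamus. They ran from 28.5 through 33.1 to 40.1 in the dorsal striatum and stood at 24.8, 27.6, 28.0, 29.3 and 30.2 in the motor cortex. The ventral striatum lay wholly above the dorsal striatum and the motor cortex, and the hypothalamus wholly above the motor cortex, while the other pairs of regions overlapped. All 6 pairs were called by edgeR. Neighbours in the order differed by -0.30 log2 (SE 0.07, adjusted p = 0.000208) from the ventral striatum to the hypothalamus, 0.35 (SE 0.08, adjusted p = 6.56e-05) from the dorsal striatum up to the hypothalamus, and -0.27 (SE 0.10, adjusted p = 0.0208) from the dorsal striatum to the motor cortex. The widest difference, of motor cortex from ventral striatum, was -0.92 (SE 0.10, adjusted p = 1.26e-20 in edgeR), with 0.65 (SE 0.08, adjusted p = 5.54e-14) for ventral over dorsal striatum and 0.62 (SE 0.10, adjusted p = 7.22e-10) for hypothalamus over motor cortex. The call between dorsal striatum and motor cortex was lost in 8 of 37 alternatives, among them the fit without the 2 dorsal striatum libraries that stood apart (-0.24, adjusted p = 0.0789 in edgeR). That between ventral striatum and hypothalamus was lost when scaled by library size alone (-0.09, adjusted p = 0.432 in edgeR). Fibroblasts of the meninges also carry *Pdgfra*. Of 10 fibroblast and meningeal genes, 7 were higher and 0 lower in the hypothalamus than in the ventral striatum, beside 43.6% of all genes called. Their median was 0.75, and *Pdgfra* was higher in the ventral striatum. Their summed level ran from 84.0 to 277 CPM in the hypothalamus and from 80.4 to 230 in the ventral striatum, with at most 1 of the 10 at 0 in a library. After the group means were removed, *Pdgfra* had an r of 0.62 with their summed level over the 28 libraries, the highest of the 8 members (the others from -0.18 to 0.24). Their part in the result was not tested.

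*Cspg4*, the NG2 proteoglycan, followed the same order with smaller steps. It stood at 21.2 ± 2.69 CPM (SD, n = 8) in the ventral striatum, 18.8 ± 1.44 (n = 8) in the hypothalamus, 16.7 ± 2.02 (n = 7) in the dorsal striatum and 13.8 ± 1.81 (n = 5) in the motor cortex. The ranges were 17.3 to 24.4, 17.2 to 20.8, 12.6 to 18.9 and 11.8 to 15.7 CPM, so the motor cortex lay below both the ventral striatum and the hypothalamus without overlap. No neighbours in this order passed the edgeR test. They gave -0.16 log2 (SE 0.09, adjusted p = 0.12) for hypothalamus against ventral striatum, 0.19 (SE 0.10, adjusted p = 0.0738) for hypothalamus against dorsal striatum and -0.23 (SE 0.12, adjusted p = 0.108) for motor cortex against dorsal striatum. The wider steps did, at 0.35 (SE 0.10, adjusted p = 0.00153) for ventral over dorsal striatum, -0.58 (SE 0.11, adjusted p = 1.05e-06) for motor cortex against ventral striatum and 0.42 (SE 0.11, adjusted p = 0.000441) for hypothalamus over motor cortex. Scaling by library size alone called hypothalamus against dorsal striatum (0.56, adjusted p = 3.95e-07 in edgeR). A filter above 5 CPM called hypothalamus against ventral striatum (-0.19, adjusted p = 0.0436 in edgeR). Hypothalamus over motor cortex was no longer called with WT and heterozygous libraries only (0.33). Pericytes and smooth muscle are the other main source of NG2. Of 10 of their genes, 3 were lower and 0 higher in the ventral than in the dorsal striatum, near the 29% of all genes called. These genes had a median of -0.34. Their summed level ran from 184 to 244 CPM in the ventral and from 241 to 322 in the dorsal striatum, with at most 1 of the 10 at 0 in a library, and their part in the result was not tested.

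*C1ql1*, the secreted C1q-like ligand, was instead highest in the hypothalamus. Its means were 13.0 ± 4.45 CPM (SD, n = 8) in the hypothalamus, 8.73 ± 2.24 (n = 8) in the ventral striatum, 4.35 ± 0.642 (n = 7) in the dorsal striatum and 4.03 ± 1.08 (n = 5) in the motor cortex. Hypothalamic libraries ran from 7.07 through 12.3 to 20.4 CPM and lay wholly above the dorsal striatum (3.60 to 5.44) and the motor cortex (2.90 to 5.15), but overlapped the ventral striatum (4.93 to 11.5). Of the members, its folds between regions were the largest: 3.07 for hypothalamus over dorsal striatum (log2 1.62, SE 0.23, adjusted p = 6.84e-12 in edgeR) and 3.14 for hypothalamus over motor cortex (log2 1.65, SE 0.26, adjusted p = 2.54e-09). It was also 2.01-fold higher in the ventral than in the dorsal striatum (log2 1.01, SE 0.24, adjusted p = 0.000157 in edgeR), lower by -1.04 (SE 0.27, adjusted p = 0.000462) in the motor cortex than in the ventral striatum and 0.61 (SE 0.20, adjusted p = 0.00698) higher in the hypothalamus than in the ventral striatum. Motor cortex and dorsal striatum did not pass (log2 -0.03, SE 0.29, adjusted p = 0.95 in edgeR), with a 95% interval from -0.61 to 0.54. The hypothalamic values were the widest of the 4 regions, and without library KO hypothalamus 7, the highest at 20.4 CPM, the difference from the ventral striatum was no longer called (0.38, adjusted p = 0.148 in edgeR). Nor was it with WT and heterozygous libraries only (0.44, adjusted p = 0.0803 in edgeR).

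*Ptprz1*, the phosphatase that is shared with astrocytes, was the most abundant member and also peaked in the hypothalamus. It reached 342 ± 29.1 CPM (SD, n = 8) there, 298 ± 24.2 (n = 8) in the ventral striatum, 209 ± 8.69 (n = 5) in the motor cortex and 206 ± 26.5 (n = 7) in the dorsal striatum. Libraries of the hypothalamus (295 to 389 CPM) and of the ventral striatum (254 to 330) overlapped each other and lay wholly above both the motor cortex (196 to 217) and the dorsal striatum (180 to 241). Hypothalamus over dorsal striatum was 0.76 log2 (SE 0.06, adjusted p = 1.65e-30 in edgeR) and over motor cortex 0.72 (SE 0.07, adjusted p = 4.6e-21). The ventral striatum exceeded the dorsal by 0.58 (SE 0.07, adjusted p = 4.47e-17 in edgeR), the motor cortex fell below the ventral striatum at -0.54 (SE 0.07, adjusted p = 5.99e-12), and the hypothalamus lay 0.19 (SE 0.06, adjusted p = 0.00725) above the ventral striatum. The last of these was lost without library WT hypothalamus 2 (0.14, adjusted p = 0.0618 in edgeR) and ranged from 0.14 to 0.40 over the alternatives. Motor cortex and dorsal striatum did not pass (0.04, SE 0.08, adjusted p = 0.715 in edgeR), with a 95% interval from -0.11 to 0.19. Of 12 astrocyte genes, 10 were also higher and 1 lower in the hypothalamus than in the dorsal striatum, beside 56.1% of all genes called. Their median was 0.73. Their summed level went the other way, from 5481 to 6874 CPM in the hypothalamus and from 7147 to 8506 in the dorsal striatum, with none at 0 in any library. Their part in the *Ptprz1* difference was not tested.

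*Gpr17*, the receptor of committed precursors, had the order of *Pdgfra*. The gene lies on chromosome 18 from 31942997 to 31949636 (minus strand), and its exons share 188 bases with *Lims2* on the other strand, where reads are uncertain. Its means were 27.6 ± 3.44 CPM (SD, n = 8) in the ventral striatum, 21.7 ± 2.67 (n = 8) in the hypothalamus, 18.4 ± 3.11 (n = 7) in the dorsal striatum and 13.3 ± 0.953 (n = 5) in the motor cortex. The 5 motor cortex libraries (12.3, 12.8, 13.0, 14.0 and 14.6 CPM) lay below every library of the dorsal striatum (15.9 to 24.3), hypothalamus (18.3 to 25.3) and ventral striatum (22.0 to 33.4). All 6 pairs were called, with the widest at -1.03 log2 for motor cortex against ventral striatum (SE 0.13, adjusted p = 1.12e-13 in edgeR), 0.68 for hypothalamus over motor cortex (SE 0.13, adjusted p = 1.56e-06) and 0.62 for ventral over dorsal striatum (SE 0.11, adjusted p = 3.27e-07). Neighbours differed by -0.35 (SE 0.10, adjusted p = 0.00233 in edgeR) for hypothalamus against ventral striatum, 0.28 (SE 0.11, adjusted p = 0.0266) for hypothalamus against dorsal striatum and -0.40 (SE 0.14, adjusted p = 0.0127) for motor cortex against dorsal striatum. Of these, hypothalamus against dorsal striatum was lost in 11 of 38 alternatives, DESeq2 among them (0.25, adjusted p = 0.089), with values between 0.18 and 0.65. Scaling by library size alone also lost hypothalamus against ventral striatum (-0.14, adjusted p = 0.315 in edgeR) and motor cortex against dorsal striatum (-0.27, adjusted p = 0.144). The first of these was lost without library KO ventral striatum 8 as well (-0.24, adjusted p = 0.0537 in edgeR).

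*Enpp6*, the phosphodiesterase of newly forming oligodendrocytes, departed from this order. Its highest mean was in the dorsal striatum, at 16.2 ± 5.21 CPM (SD, n = 7), followed by the ventral striatum at 13.9 ± 2.81 (n = 8), the hypothalamus at 11.0 ± 3.04 (n = 8) and the motor cortex at 6.60 ± 2.91 (n = 5). Dorsal striatum libraries spread from 9.74 through 14.4 to 22.6 CPM, and the 5 of the motor cortex stood at 3.58, 4.32, 6.04, 8.48 and 10.6, so that the lowest of the first and the highest of the second overlapped. The motor cortex was lower than the dorsal striatum by -1.23 log2 (SE 0.22, adjusted p = 1.65e-07 in edgeR), than the ventral striatum by -1.06 (SE 0.22, adjusted p = 6.09e-06) and than the hypothalamus, which was 0.72 above it (SE 0.22, adjusted p = 0.00262). The hypothalamus was below the dorsal striatum by -0.51 (SE 0.17, adjusted p = 0.0071 in edgeR). Ventral against dorsal striatum (-0.17, SE 0.17, adjusted p = 0.514) and hypothalamus against ventral striatum (-0.34, SE 0.17, adjusted p = 0.0922) did not pass edgeR's test. Differences of *Enpp6* between regions leaned on the KO libraries: with WT and heterozygous libraries only, motor cortex against dorsal striatum was -0.63 (adjusted p = 0.0578 in edgeR), hypothalamus against motor cortex 0.31 (adjusted p = 0.372) and hypothalamus against dorsal striatum -0.32 (adjusted p = 0.184). Hypothalamus against dorsal striatum was also lost without the 2 dorsal striatum libraries that stood apart (-0.37, adjusted p = 0.0746 in edgeR) and with library size alone (-0.15, adjusted p = 0.478).

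*Vcan*, the matrix proteoglycan, was mainly low in the motor cortex. Its means were 40.5 ± 12.8 CPM (SD, n = 7) in the dorsal striatum, 34.6 ± 3.59 (n = 8) in the hypothalamus, 34.5 ± 2.63 (n = 8) in the ventral striatum and 21.2 ± 1.67 (n = 5) in the motor cortex. All 5 motor cortex libraries, from 19.5 to 23.9 CPM, lay below the lowest library elsewhere, 27.6 CPM in the hypothalamus. The motor cortex was lower than the dorsal striatum by -0.92 log2 (SE 0.15, adjusted p = 1.55e-08 in edgeR) and than the ventral striatum by -0.69 (SE 0.15, adjusted p = 3.08e-05), and the hypothalamus was 0.70 above it (SE 0.15, adjusted p = 1.42e-05). The other 3 regions did not differ past the edgeR threshold, with adjusted p = 0.15 for ventral against dorsal striatum (-0.24, SE 0.13), 0.113 for hypothalamus against dorsal striatum (-0.23, SE 0.12) and 0.942 for hypothalamus against ventral striatum (0.01, SE 0.12). The wide dorsal striatum spread came from 2 libraries, WT dorsal striatum 1 at 64.7 CPM and heterozygous dorsal striatum 4 at 51.3 CPM, against 29.7 to 37.5 CPM in the other 5.

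*Bmp4*, the secreted differentiation inhibitor, was near the limit of detection everywhere. Means ran from 1.70 ± 0.631 CPM (SD, n = 7) in the dorsal striatum through 1.79 ± 0.832 (n = 8) in the ventral striatum and 2.01 ± 0.438 (n = 5) in the motor cortex to 2.21 ± 0.596 (n = 8) in the hypothalamus. Ranges of all 4 regions overlapped, and no pair passed, the neighbours giving 0.20 log2 (SE 0.32, adjusted p = 0.617 in edgeR) for hypothalamus against motor cortex, 0.15 (SE 0.34, adjusted p = 0.755) for motor cortex against ventral striatum and 0.02 (SE 0.31, adjusted p = 0.978) for ventral against dorsal striatum. The 95% intervals of the 6 pairs lay between -0.59 and 0.93. At 2 to 14 counts per library no region difference of *Bmp4* was detected, and differences within those intervals remain possible.

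**Figure D2:**
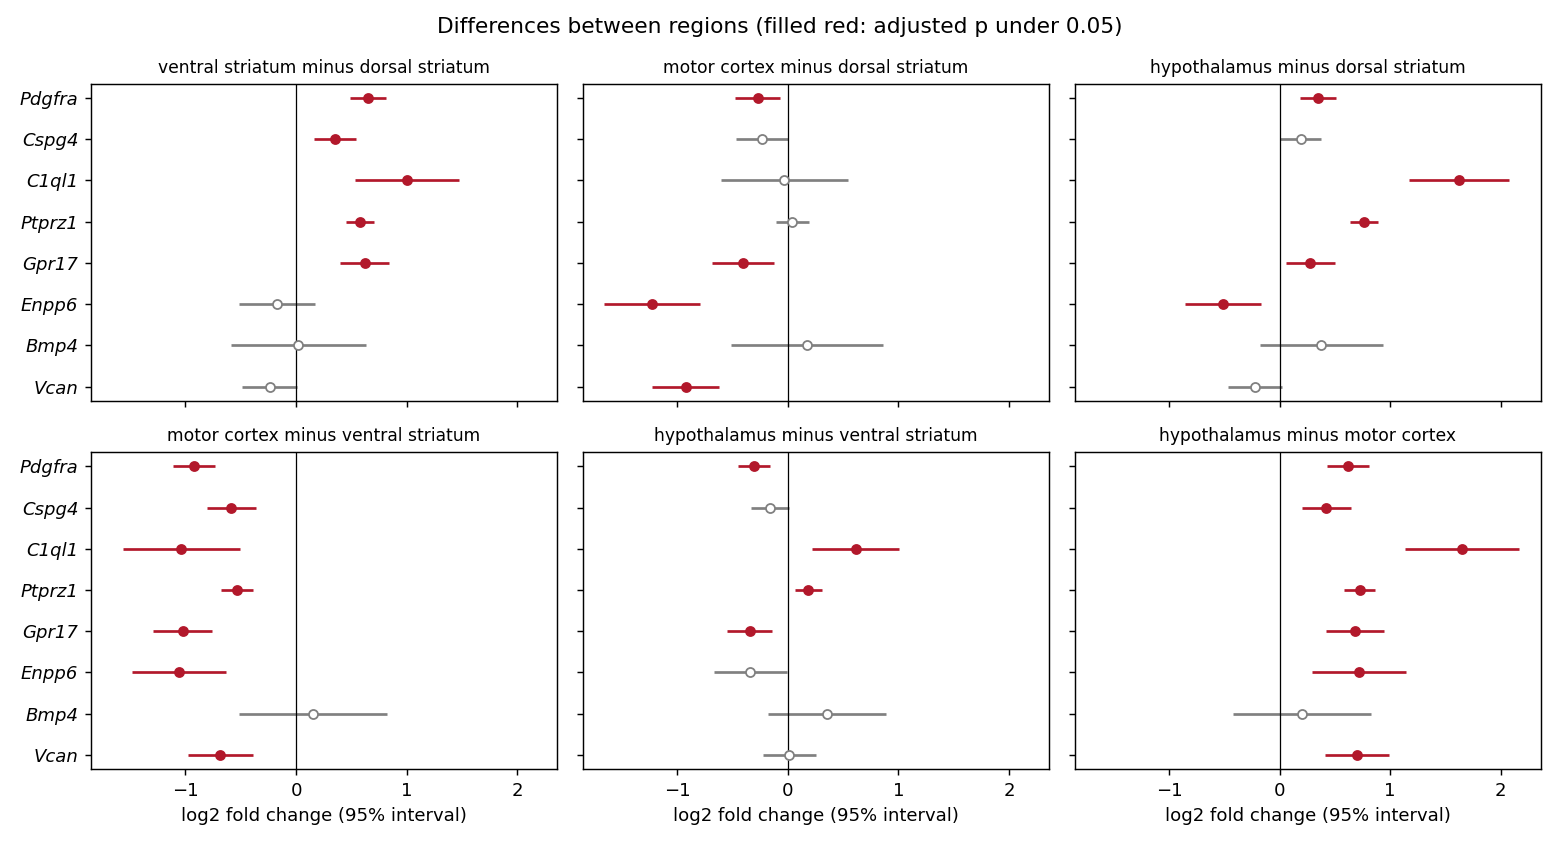
Each panel gives 1 pair of regions, with the log2 fold change on the horizontal axis, a point and its 95% interval for each of the 8 members, and filled red points where the adjusted p was under 0.05. Against the ventral striatum, 7 of 8 members are lower in the motor cortex, and 7 of 8 are higher in the hypothalamus than in the motor cortex.

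Counted over the members, edgeR called 32 of 48 differences between regions. In the ventral against the dorsal striatum 5 of 8 members were higher and 0 lower (median log2 0.46, against 0.01 over all genes), where 29% of all genes tested were called. The motor cortex was lower than the dorsal striatum in 4 members (43.4% of all genes called, member median -0.25) and lower than the ventral striatum in 7 (43.6% of all genes, member median -0.80, against -0.04 over all genes). The hypothalamus was higher than the dorsal striatum in 4 members and lower in 1, *Enpp6* (56.1% of all genes). It was higher than the ventral striatum in 2, *C1ql1* and *Ptprz1*, and lower in 2, *Pdgfra* and *Gpr17* (43.6%). It was higher than the motor cortex in 7 (48.2%, member median 0.69, against 0.05 over all genes). The shares called in motor cortex against dorsal striatum, hypothalamus against dorsal striatum and hypothalamus against ventral striatum, 4, 5 and 4 of 8, lay near the background of those comparisons. Comparisons that share a region are not independent of each other. Scaling by library size alone moved the median of all genes by 0.41 log2 in hypothalamus against dorsal striatum, 0.28 against motor cortex, 0.24 against ventral striatum and 0.17 in ventral against dorsal striatum, and 29 differences were then called. That scaling lost 5 of the 32 calls, those of *Pdgfra* and *Gpr17* in motor cortex against dorsal striatum and in hypothalamus against ventral striatum, and of *Enpp6* in hypothalamus against dorsal striatum.

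The other genes of the lineage gave a mixed picture of the same regions. Of all genes, 29% were called in ventral against dorsal striatum. The share was 43.6% in motor cortex against ventral striatum and 43.4% in motor cortex against dorsal striatum. Of 23 other markers of precursors and committed precursors that were tested (of 24 listed), 11 were higher and 3 lower in the ventral than in the dorsal striatum (median 0.31), with *Olig1* at 0.52 (SE 0.10) and *Olig2* at 0.53 (SE 0.12), both transcription factors of the lineage. In the motor cortex against the ventral striatum 2 were higher and 13 lower (median -0.39), with *Olig2* at -0.90 (SE 0.14), *Sox10*, the lineage's SOX factor, at -1.18 (SE 0.14) and *Bcas1*, a marker of newly forming oligodendrocytes, at -0.60 (SE 0.13). Some genes of this list moved more than any member, such as *Tcf7l2*, a transcription factor that some neurons also use, at 3.78 in the hypothalamus over the dorsal striatum. Of 20 genes of mature oligodendrocytes and myelin, 19 were lower in the motor cortex than in the ventral striatum (median -0.98) and 19 than in the dorsal striatum (median -0.92), whereas in the ventral against the dorsal striatum only *Opalin*, an oligodendrocyte membrane protein, was called (0.43, SE 0.15, adjusted p = 0.0212 in edgeR). *Pdgfra*, *Cspg4*, *Gpr17*, *C1ql1* and *Ptprz1* were called at that step, and *Enpp6*, *Vcan* and *Bmp4* were not.

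Partners of the members moved in both directions. Of 35 ligands, receptors, substrates and antagonists, 2 were higher and 6 lower in the ventral than in the dorsal striatum (median -0.02) and 14 higher and 12 lower in the motor cortex than in the ventral striatum (median 0.01). The first stands beside 29% of all genes called. The second is 26 of 35 called, beside 43.6% of all genes. *Pdgfa*, the ligand of the *Pdgfra* receptor, was higher in the motor cortex than in the ventral striatum by 0.43 log2 (SE 0.10, adjusted p = 3.66e-05 in edgeR), where its receptor was lower. *Ptn*, which encodes the pleiotrophin ligand of *Ptprz1*, was lower in the hypothalamus than in the dorsal striatum by -0.88 (SE 0.08, adjusted p = 2.64e-28 in edgeR), where *Ptprz1* was higher. *Adgrb3*, the receptor for *C1ql1*, was lower there as well (-0.72, SE 0.08, adjusted p = 6.65e-20 in edgeR). Of *Bmp4* receptors, *Bmpr1a* was lower in the motor cortex than in the ventral striatum by -0.49 (SE 0.09, adjusted p = 6.84e-08 in edgeR). These genes were named from the list after their values were seen, for being the direct partners of members.

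The series was built to compare *Hdc* genotypes, and within regions no member was called between them. In the dorsal striatum KO against WT gave 0 of 8 members called (0.387% of all genes were), and 0 of 8 in the ventral striatum (0.0801%), the motor cortex (0.0334%) and the hypothalamus (0.167%). Over these 32 tests the edgeR likelihood ratio test gave 2 at an unadjusted p under 0.05, both of *Enpp6*, against 7.94%, 5.39%, 4.33% and 6.03% of all genes in that order, while DESeq2 and edgeR's quasi-likelihood test called 0. Medians of the members, 0.04, 0.01, -0.13 and 0.11 log2 in that order of regions, stood beside 0.00, 0.01, 0.00 and 0.01 over all genes.

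In the dorsal striatum, *Enpp6* gave the largest KO difference of the 8 members. The WT libraries stood at 13.2 and 9.74 CPM, the heterozygous at 22.2, 11.8 and 14.4, and the KO at 19.8 and 22.6. Both KO libraries lay above both WT libraries, while the heterozygous libraries overlapped both groups. The difference was 0.89 log2 (SE 0.33, 95% interval 0.25 to 1.54), a fold of 1.86, with an unadjusted p = 0.00685 and an adjusted p = 0.326 in edgeR, so it did not pass over all genes. Without library KO dorsal striatum 7, the one with the highest level of cortical neuron genes, it was 0.99 (adjusted p = 0.318 in edgeR). Without library KO dorsal striatum 8 it was 0.80 (adjusted p = 0.898 in edgeR), without the 2 libraries that stood apart 0.80 (adjusted p = 0.798). Of the alternatives, only scaling by library size alone called it (1.19, adjusted p = 0.0283 in edgeR), with a shift of 0.28 in the median of all genes.

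The other 7 members gave smaller differences there. *Pdgfra* was at 28.5 and 34.2 CPM in WT and 33.1 and 40.1 in KO libraries, a log2 difference of 0.21 (SE 0.17, adjusted p = 0.812 in edgeR) with overlapping groups. *Cspg4* was at 12.6 and 16.1 CPM in WT and 17.0 and 18.1 in KO libraries, which did not overlap, at 0.27 (SE 0.20, adjusted p = 0.79 in edgeR). Without library WT dorsal striatum 1 the *Cspg4* value was 0.12 and without WT dorsal striatum 2 it was 0.48. *Vcan* was at 64.7 and 29.7 CPM in WT and 37.5 and 33.8 in KO libraries, at -0.39 (SE 0.24, adjusted p = 0.735 in edgeR), and without library WT dorsal striatum 1 the value turned to 0.27. The 95% intervals ran from -0.11 to 0.53 for *Pdgfra* and from -0.24 to 0.26 for *Ptprz1* (0.01, SE 0.13, adjusted p = 0.997 in edgeR), the second at 192 and 180 CPM in WT and 182 and 192 in KO libraries. *Gpr17*, at 18.0 and 16.1 CPM in WT and 15.9 and 17.6 in KO libraries, gave -0.02 (SE 0.23, adjusted p = 0.997 in edgeR, 95% interval -0.47 to 0.43), and *C1ql1* gave 0.06 (SE 0.49, adjusted p = 0.995). *Bmp4* gave -0.07 (SE 0.59, adjusted p = 0.995 in edgeR), with an interval of -1.23 to 1.08 that leaves a change of 2-fold in either direction possible.

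**Figure D3:**
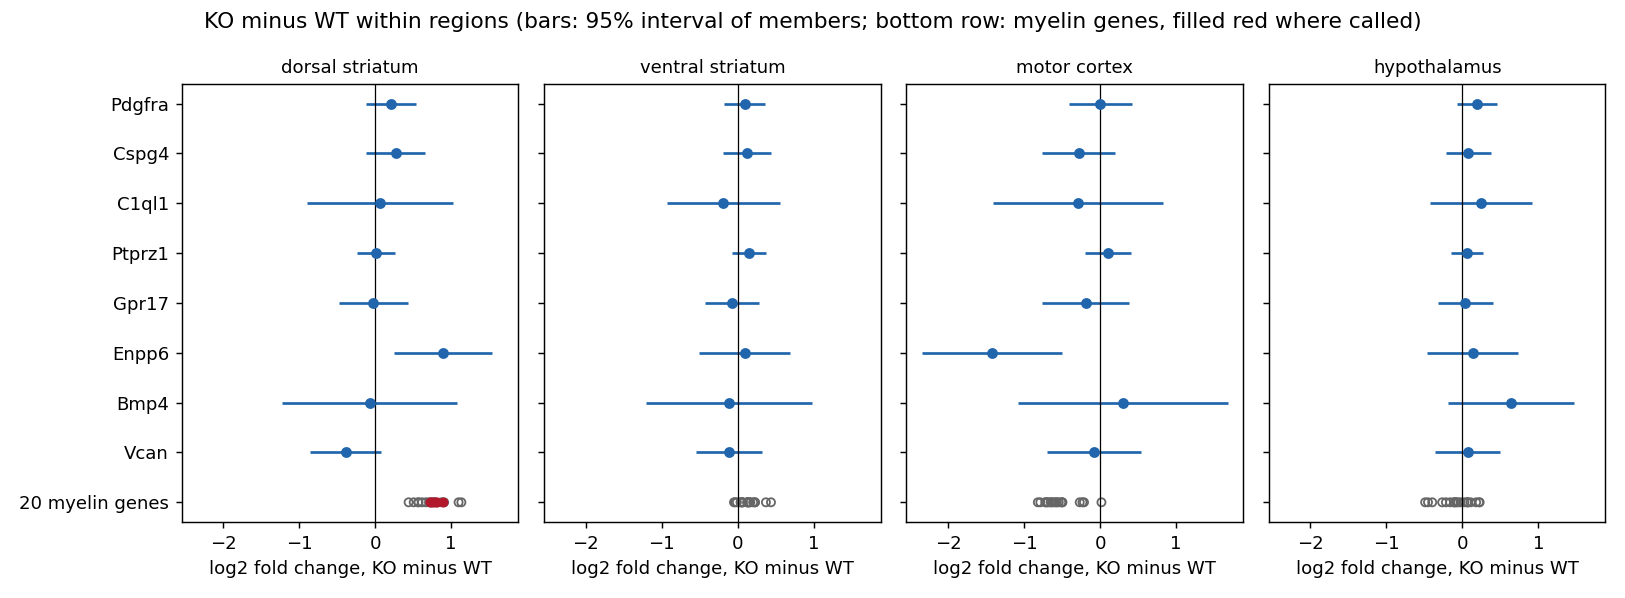
Each panel gives 1 region, with the log2 fold change of KO minus WT on the horizontal axis, a point and 95% interval for each of the 8 members and, in the lowest row, a point for each of the 20 myelin genes, filled red where the adjusted p was under 0.05. In the dorsal striatum *Enpp6* at 0.89 lies among the myelin genes (median 0.75), and in the motor cortex *Enpp6* at -1.42 lies below all of them.

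In the other regions the signs varied. In the hypothalamus all 8 members had positive log2 differences between KO and WT, from 0.04 for *Gpr17* to 0.64 for *Bmp4* (SE 0.42, adjusted p = 0.939 in edgeR), the lowest adjusted p of the 8. How many of all genes were positive there was not counted, and the members share the same libraries. *Bmp4* stood at 3.03 and 3.01 CPM in the KO and at 1.93, 2.41 and 1.43 in the WT hypothalamus, on 8 to 14 counts per library, without overlap between those groups. In the ventral striatum the members lay between -0.19 for *C1ql1* and 0.15 for *Ptprz1*, 4 of 8 above 0. In the motor cortex *Enpp6* stood at 3.58 and 4.32 CPM in KO, 6.04 and 8.48 in heterozygous and 10.6 in the single WT library, a log2 difference of -1.42 (SE 0.47, unadjusted p = 0.00214, adjusted p = 0.771 in edgeR) that was called only in a fit to the motor cortex libraries alone (adjusted p = 0.0364). With 1 WT library, both p-values rest on the spread within other groups, which that library is assumed to share. Averaged over the dorsal striatum, ventral striatum and hypothalamus, KO against WT called 0 of 8 members (0.527% of all genes), and DESeq2 called 0 as well. There *Enpp6* at 0.37 (SE 0.18, adjusted p = 0.445 in edgeR) and *Pdgfra* at 0.17 (SE 0.08, adjusted p = 0.478) were the 2 at an unadjusted p under 0.05, against 10.4% of all genes. In the KO hypothalamus the 10 fibroblast genes summed to between 259 and 277 CPM, against 84.0 to 171 in WT, and their part in the *Pdgfra* value was not tested. The KO effect in the dorsal striatum less that in the ventral striatum (0.00668% of all genes called) or in the hypothalamus (0.154%) was called in 0 of 8 members each. Of these 16 tests 0 had an unadjusted p under 0.05 in edgeR and 0 were called by DESeq2. The differences for *Enpp6* were 0.80 (SE 0.45) and 0.76 (SE 0.45).

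Heterozygous libraries gave no call against either group. Against WT, 0 of 8 members were called in the dorsal striatum (0.0868% of all genes), ventral striatum (0.0534%), motor cortex (0.0134%) and hypothalamus (0.0935%), with 0 called by DESeq2. In edgeR 4 of the 32 tests had an unadjusted p under 0.05, 1, 1, 0 and 2 in that order, against 7.94%, 4.5%, 3.72% and 5.62% of all genes. KO against heterozygous likewise called 0 of 8 in the dorsal striatum (0.454%), ventral striatum (0.0467%), motor cortex (0.00668%) and hypothalamus (0.234%), with 0 by DESeq2. Here 2 of 32 had an unadjusted p under 0.05 in edgeR, against 7.27%, 3.44%, 4.18% and 5.57% of all genes. The nearest to a call was *Ptprz1* in the dorsal striatum, at 241, 215 and 241 CPM in the heterozygous libraries and between 180 and 192 in the WT and KO libraries, without overlap. It was 0.32 log2 higher than WT (SE 0.11, adjusted p = 0.354 in edgeR), called only when scaled by library size alone (0.51, adjusted p = 0.0425), and KO was -0.31 below it (SE 0.11, adjusted p = 0.348).

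Beside the members, genes of mature oligodendrocytes were higher in the KO dorsal striatum. Of 20 myelin genes all 20 had positive differences from WT and 6 were called (median 0.75, against 0.00 over all genes): *Mobp*, *Cnp*, *Cldn11*, *Trf*, *Apod* and *Gjc3*, at 0.72 to 0.89 log2. *Mobp*, a basic protein of central myelin, was at 0.76 (SE 0.18, adjusted p = 0.0189 in edgeR). The list was chosen with its change in these libraries known, so its count is no independent evidence of a direction. Of the 20, 0 were called in edgeR's quasi-likelihood test or with the replicate block fitted in limma (median 0.75 in both). With a choroid plexus covariate 0 were called as well (median 0.68). The median was 0.61 without library KO dorsal striatum 8, 0.83 without WT dorsal striatum 1 and 0.65 without WT dorsal striatum 2. Each of these fits leaves 1 library in a group. DESeq2 called 3, the fit to the libraries of the region only 8 (median 0.75) and scaling by library size alone 17 (median 1.04), where the median of all genes moved by 0.28. Of the 23 other precursor markers tested, 0 were called in the same comparison (12 positive, median 0.11), with the smallest p-values for *Bcas1* at 0.69 (SE 0.21, adjusted p = 0.14 in edgeR), *Sema5a* at 0.83 (SE 0.27, adjusted p = 0.198) and *Olig2* at 0.69 (SE 0.24, adjusted p = 0.231). In the hypothalamus 1 of them was called, *Kcnip3*, a calcium-binding protein that neurons also use (-0.70, SE 0.18, adjusted p = 0.0479 in edgeR). Of the 35 partners 1 was called in KO against WT dorsal striatum, *Adamts4* (0.86, SE 0.23, adjusted p = 0.0496 in edgeR). It encodes a protease that cleaves versican and related proteoglycans. The next smallest p-values among the partners were those of *Adamts1* (0.81, SE 0.31) and *Hapln2* (1.10, SE 0.46), neither of them called. *Hapln2* is also 1 of the 20 myelin genes, so it is counted in both lists. Among the other cell types, 7 of 8 choroid plexus genes tested were higher in KO, with library KO dorsal striatum 8 alone at a high level. Called were 0 of 12 astrocyte, 0 of 10 pericyte and smooth muscle, 0 of 10 fibroblast, 0 of 8 microglia 0 of 5 cell division and 0 of 8 endothelial genes tested. The part of these cell types in the values of the members was not tested.

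Library by library, *Enpp6* had the highest correlation with the myelin genes of the 8 members. Over the 28 libraries the Pearson correlation of its log2 CPM with the log2 of the 20 myelin genes' summed CPM was 0.87, and 0.71 after the mean of each group of genotype and region was removed. The same correlations of the other 7 members ran from -0.12 (*Bmp4*) to 0.68 (*Cspg4*), and from -0.23 (*Pdgfra*) to 0.22 (*Ptprz1*) after group means were removed. With the summed level of the 23 other precursor markers, *Enpp6* had an r of 0.52, and 0.70 after group means were removed, about as high as with the myelin genes. These points share libraries, depth and scaling, and the values are descriptions. In the dorsal striatum the summed myelin level was 3806 and 3269 CPM in WT, 4961, 4691 and 4763 in heterozygous and 4927 and 6268 in KO libraries, and in the motor cortex 2778 in WT, 2868 and 2529 in heterozygous and 1697 and 1967 in KO libraries. In both the myelin genes and *Enpp6*, the KO libraries lay above the WT libraries in the dorsal striatum and were the lowest of the motor cortex. In the other regions, heterozygous hypothalamus 6 was highest of its region in *Enpp6* (16.7 CPM) and in the myelin sum (6352 CPM). The lowest of that region did not match, with WT hypothalamus 3 lowest in *Enpp6* (7.70 CPM) and heterozygous hypothalamus 5 in the myelin sum (3654 CPM). Library WT ventral striatum 3 was highest of its region in both (5706 CPM for the myelin sum), with WT ventral striatum 2 lowest in both (8.88 and 3857 CPM).

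**Figure D4:**
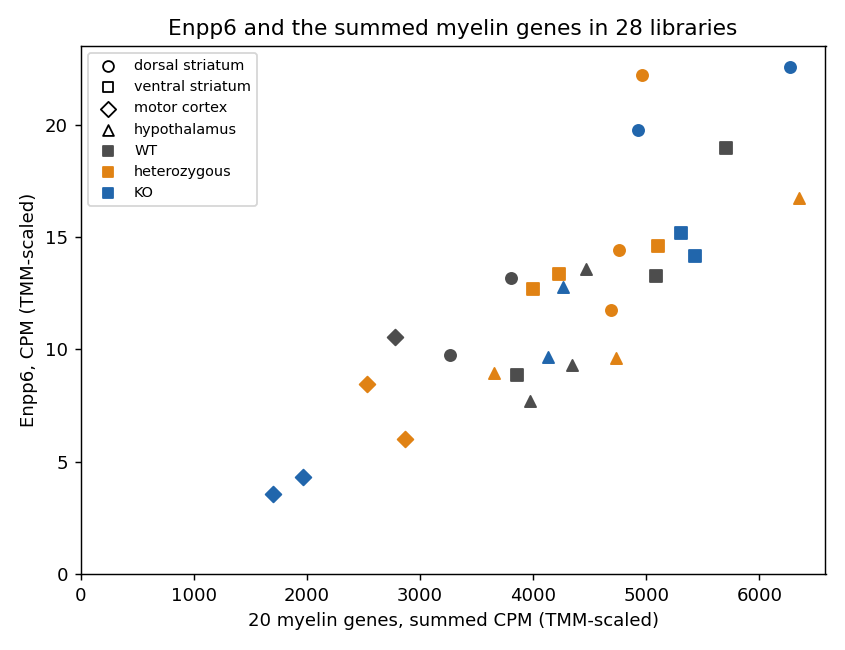
*Enpp6* in TMM-scaled CPM on the vertical axis is plotted against the summed TMM-scaled CPM of 20 myelin genes on the horizontal axis, with 1 point for each of the 28 libraries, shaped by region and coloured by *Hdc* genotype. The KO motor cortex libraries (3.58 and 4.32 CPM of *Enpp6*) lie at the lower left and the KO dorsal striatum libraries (19.8 and 22.6) near the upper right.

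The genes whose levels were most like each member over the 28 libraries, among 10032 non-member genes above 5 CPM on average, differed between members. For *Enpp6* they were *Cldn11* (r = 0.89), *Mobp* (0.88) and *Anln* (0.88), the first 2 of them myelin genes, and after removal of group means *Aspa*, an enzyme of mature oligodendrocytes (0.86), *Plekha7* (0.84) and *Rnf13* (0.82). For *Pdgfra* they were *Cdh4* (r = 0.92), *Ndst4* (0.91) and *Sox1* (0.91), and for *Gpr17* *Htr4* (0.89), *Fchsd2* (0.89) and *Cdh4* (0.88). For *Ptprz1* the nearest were *Ncam1* (r = 0.96), *Dlg5* (0.95) and *Tmem130* (0.95), for *C1ql1* *Lrig1* (0.91), *Ndrg2* (0.89) and *Hdac11* (0.89), and for *Vcan* *Zeb1* (0.86), *Nfatc2* (0.82) and *Agap1* (0.81). *Cspg4* was closest to *Aldh3a2* (r = 0.85), *Ccdc6* (0.83) and *Npy2r* (0.83), and *Bmp4* to *Timm10b* (0.66), *Eid2* (0.58) and *Arid2* (0.53). Among the members themselves *Pdgfra* and *Gpr17* (r = 0.85), *Pdgfra* and *Cspg4* (0.84) and *C1ql1* and *Ptprz1* (0.81) were most alike, and *Enpp6* and *Ptprz1* least among pairs without *Bmp4* (0.13), although after removal of group means that pair had the highest r of the 28 pairs (0.55). After removal of group means the nearest genes were *Agt* (0.88), *Arl5a* (0.87) and *Farsb* (0.84) for *Pdgfra*, *Zfp27* (0.77), *Srsf7* (0.76) and *Snx4* (0.73) for *Cspg4*, and *Mtx1* (0.78), *Prrg3* (0.78) and *B3galnt1* (0.78) for *Gpr17*. They were *Nckap1l* (0.76), *Mrpl10* (0.72) and *Eng* (0.71) for *C1ql1* and *Msi2* (0.82), *Chd6* (0.81) and *Iqsec1* (0.80) for *Ptprz1*. For *Vcan* they were *Raver1* (0.83), *Mark3* (0.80) and *Mllt3* (0.74), and for *Bmp4* *Copb1* (0.80), *Wdr75* (0.79) and again *Timm10b* (0.78). Without group means the first 3 member pairs above had r of 0.32, 0.22 and 0.06. Picking the 3 highest of 10032 genes can give high r by selection alone. This holds more so after group means are removed, which leaves fewer free values than 28 libraries. No background for such r was taken, so the genes named are descriptions.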

How the data were processed

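RNA from 4 brain regions was sequenced as single-end reads in 28 libraries. According to the study's methods, the authors trimmed reads with Trimmomatic 0.32, removed ribosomal reads with Bowtie2 2.2.3, aligned to GRCm38 with STAR and counted uniquely mapped reads on exons with HTSeq 0.6.1p1 in union mode. The authors deposited 1 table of raw counts a library, not normalized. The tally rows of unassigned reads were left out, and 44.8% to 54.2% of tallied reads were on genes. Symbols, positions and exon lengths came from GENCODE M21, which named 28758 of 29878 identifiers.

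Counts were fitted with edgeR 4.0.16 in R 4.3.3 (glmFit, glmLRT, TMM) in 1 model with a mean for each of 12 groups on all 28 libraries. Region comparisons averaged the 3 genotypes with equal weights. Genes above 1 CPM in at least 2 libraries were kept, and log2 CPM used a prior count of 2. Standard errors came from the fit's information matrix, and intervals are 95%. Alternatives were other scalings and filters, edgeR's quasi-likelihood test, DESeq2 1.42.0, a replicate block (limma 3.58.1 for genotypes), a choroid plexus covariate, subsets of libraries and leaving out each library. The members and lists were chosen with earlier results of these data known. Named were all members, the list genes with the smallest p-values or called, and the 3 genes most correlated with each member. Among 21 pairs of libraries of a group, chi-square per degree of freedom of the counts was 1.78 to 13.3, so none looked deposited in duplicate. Code was tested on simulated data.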

Additional observations from a re-analysis of the deposited data

Results flagged for a closer look

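*Enpp6* and *Cspg4* had KO libraries above all WT libraries in the dorsal striatum and below the WT library in the motor cortex. With groups of 1 or 2 libraries, spread between libraries alone can give such separation. In the motor cortex 6 of 8 members had KO libraries apart from the WT library, and in the dorsal striatum 2 of 8 were without overlap. How many of all genes show the same pattern was not counted, so it does not set these 2 genes apart. The difference between the 2 KO effects was 2.31 log2 for *Enpp6* (0.89 in the dorsal striatum and -1.42 in the motor cortex) and 0.55 for *Cspg4* (0.27 and -0.28), and it was not tested. The motor cortex side of both rests on 1 WT library. The *Cspg4* value in the dorsal striatum was 0.12 without library WT dorsal striatum 1 and 0.48 without WT dorsal striatum 2. With 3 or fewer libraries in each of the 12 groups, no outlier test was made for the members.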

How the results depend on the processing

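The 32 region differences called kept their direction under all 1198 alternative values, and 21 of them stayed past the threshold in every one. The number called was between 25 (WT and heterozygous libraries only) and 33 (genes above 5 CPM), 31 to 33 when single libraries were left out, and 32 with the replicate block. Leaving out the WT motor cortex library allowed no comparison with that region's mean over 3 genotypes. Calls of members in KO against WT within regions went from 0 to 1 with library size alone (*Enpp6*, dorsal striatum, 1.19) and to 1 with the libraries of the region only (*Enpp6*, motor cortex, -1.42), and calls of heterozygous against WT from 0 to 1 with library size alone (*Ptprz1*, dorsal striatum, 0.51). The other genotype counts stayed at 0, also when single libraries were left out (0 to 0).

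Results that changed sign were all uncalled. With library size alone, log2 values were 0.051 for *Cspg4* in hypothalamus against ventral striatum, 0.10 for *C1ql1* in motor cortex against dorsal striatum, 0.15 for *Vcan* in hypothalamus against dorsal striatum, and 0.26 for *Gpr17* and 0.20 for *Bmp4* in KO against WT dorsal striatum. *Vcan* in hypothalamus against ventral striatum (0.01) became -0.0024 with RLE scaling, -0.0032 with no filter, -0.018 above 5 CPM, -0.0024 in DESeq2 and -0.045 in WT and heterozygous libraries, which also gave 0.015 for *Enpp6* in ventral against dorsal striatum and -0.023 for *Ptprz1* in motor cortex against dorsal striatum. Without the 2 dorsal striatum libraries that stood apart, an alternative chosen after seeing the data, *Bmp4* was -0.017 in ventral against dorsal striatum and 0.027 in KO against WT dorsal striatum, where *Ptprz1* was -0.031 and, with the choroid plexus covariate, -0.074.

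With single libraries left out, KO against WT dorsal striatum ranged from -0.20 to 0.03 for *Bmp4*, -0.049 to 0.21 for *C1ql1*, -0.11 to 0.053 for *Gpr17*, -0.041 to 0.058 for *Ptprz1* and -0.86 to 0.27 for *Vcan*. *Enpp6* in KO against WT ranged from -0.12 to 0.38 in the hypothalamus and -0.14 to 0.41 in the ventral striatum. *Bmp4* ranged from -0.035 to 0.50 in motor cortex against ventral striatum and -0.33 to 0.21 in ventral against dorsal striatum, *C1ql1* from -0.19 to 0.078 in motor cortex against dorsal striatum, and *Vcan* from -0.044 to 0.041 in hypothalamus against ventral striatum. The cause of these changes was not tested. Whether the digits in library names pair the libraries could not be decided from the counts. Deviations from group means correlated at 0.007 on average over 34 pairs of the same digit and -0.004 over 56 pairs of other digits. There were 0 pairs over 0.1, but 18 of 27 libraries correlated best with their own digit. Removing the mean of so small a group also forces its deviations to mirror each other. The fit with the replicate block changed none of the member counts, and for genotypes it used limma. Of the 6 myelin genes called in KO against WT dorsal striatum it left 0 (median 0.75). The quasi-likelihood test without a block also called 0 (median 0.75), so the part of the block was not separated from that of the test.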
